A study of Mus musculus with 7 samples.

Results

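The IL-6 family axis was followed in 10 genes across both genetic mouse models of glioblastoma (GBM), the most malignant brain tumor of the glial lineage. They were the cytokines Il6 and Lif, the receptor genes Il6ra, Il6st, Osmr and Lifr, the signal transducer Stat3, its inhibitor Socs3, and the C/EBP factors Cebpb and Cebpd. Each was found by its symbol among the 49492 genes of the count table, and all 10 had enough reads to be tested between the models with 16091 genes in all.

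IL-6 family cytokines bind a ligand-specific receptor chain and then the shared chain gp130, the product of Il6st. The JAK kinases on these chains phosphorylate STAT3, which moves to the nucleus and switches on its targets, among them Socs3, whose protein shuts the receptor complex down again. STAT3 and C/EBPβ are known regulators of the mesenchymal state of glioma, and IL-6 is made in gliomas by tumor cells, macrophages, astrocytes and vessel cells alike.

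The NPCTKO model was made by in utero electroporation of plasmids that carry Cas9, guides to tumor suppressor genes, Trp53 and Nf1 among them, luciferase and an EGFP or DsRed cassette into neural progenitors of the embryonic neocortex, integrated by piggyBac transposition. The NSCHRas-shp53 model was made by injecting lentivirus with an shRNA to Trp53 and an active human HRAS beside the lateral ventricle of adult mice. The labels give the strain C57BL/6 and an age of 3 months for all 7 libraries, 4 of NPCTKO and 3 of NSCHRas-shp53. NPCTKO RNA came from EGFP+ or DsRed+ cells sorted by flow cytometry, and NSCHRas-shp53 RNA from whole GBM tissue, so that model and preparation cannot be told apart. The methods describe reporter mice for the lentiviral tumors (Tek-Cre;Ai14 and Tbx18-CreERT2;Ai14) and Tbx18-H2B-GFP mice on a mixed C57BL/6 and CD-1 background for some electroporated ones, and which of them gave each library is not stated. Whether each library is a separate mouse is not stated either, so the p-values measure only the spread between these libraries.

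Total counts ranged from 15002873 to 19840860 per library, and 3 counts, taken as the floor for counting error alone, came to between 0.13 and 0.234 CPM (counts scaled to library size with TMM factors). Marker RNA of other cell types was read in the sorted libraries too. The summed CPM of 16 markers of tumor-associated macrophages and microglia (TAM) was 23326, 29565.6, 658 and 4528.6 in NPCTKO 1 to 4, against 9846.6, 3737.8 and 4548.9 in NSCHRas-shp53. Of 15 tested markers, 0 were called between the models by edgeR, also at an unadjusted p under 0.05, or by DESeq2. P2ry12 held 0 counts in every library of the count table and so adds nothing to these sums. Its RNA was not absent. In FPKM (fragments scaled to transcript length and library size) it reached 27.5 in NPCTKO and 32.8 in NSCHRas-shp53. Granulocyte markers summed to 396, 376, 8.44 and 65.8 CPM in NPCTKO and 60.9 to 135 CPM in NSCHRas-shp53, and T cell markers to 10.2 to 54.6 and 21.8 to 60.6 CPM, with 0 of 5 and 0 of 7 tested genes called (edgeR, also 0 at an unadjusted p under 0.05 and 0 by DESeq2). Most of the granulocyte sum was Csf3r, at 297, 374, 6.82 and 64.9 CPM in NPCTKO and 53.4 to 118 CPM in NSCHRas-shp53. The granulocyte genes S100a8 and S100a9 were read at 33.5 and 50.9 CPM in NPCTKO 1, but at 0.702 and 0.156 CPM in NPCTKO 2. The summed CPM of 15 immediate early and dissociation genes ran the same way as the TAM sum within NPCTKO, at 14705.5, 16901.5, 3259.8 and 6362.5, against 6297.2, 1238.9 and 861 in NSCHRas-shp53. Of these genes edgeR called 2, the heat shock genes Hspa1a and Hspa1b, both lower in NSCHRas-shp53. At an unadjusted p under 0.05 edgeR gave 1 higher and 7 lower, and DESeq2 called 0 higher and 5 lower. NPCTKO 1 and 2 thus had the highest sums in the TAM list and in the immediate early list. Whole NSCHRas-shp53 tissue carried more marker RNA of mural cells (321 to 544 against 27.2 to 42.7 summed CPM over 10 markers, 7 called) and of astrocytes (2665.7 to 3952.3 against 204 to 578 over 9 markers, 7 of 8 tested called, Gfap at 0 counts). The paper reports an astrocyte-like state among NSCHRas-shp53 tumor cells, so these markers do not tell astrocytes from tumor cells. Marker RNA was also higher for neurons (322 to 633 against 26.4 to 46.8, 8 of 8 tested called, Nefl at 0 counts), fibroblasts (255 to 659 against 37 to 109, 3 of 5 tested called) and endothelial cells (693 to 1383.3 against 47.9 to 342, 4 of 10 called). Nefl too was read in FPKM, at 0.082 to 4.39 in NPCTKO and 29.2 to 139 in NSCHRas-shp53. Markers of oligodendrocyte precursors, which GBM cells often express, summed to 2272.4 to 5411.5 CPM in NPCTKO and 487 to 855 in NSCHRas-shp53, with 4 of 5 lower in the latter. In bulk RNA, fewer cells of a type and less RNA per cell cannot be told apart.

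Between the models, Il6 and Lif, the cytokines of the set, were higher in NSCHRas-shp53 tissue, and 0 members were called higher in NPCTKO (edgeR; 1, Socs3, at an unadjusted p under 0.05, and the same 1 by DESeq2). With edgeR's quasi-likelihood test at an adjusted p under 0.05, 2 of the 10 members were called, where 13.1% of all genes tested were. The direction NSCHRas-shp53 higher held 7.77% of all genes and the direction NPCTKO higher 5.28%. The median log2 fold change (NSCHRas-shp53 minus NPCTKO) was 0.32 over the 10 members and -0.1 over all genes. All CPM values of the models lay apart for 4 members, with Il6, Lif and Osmr above in NSCHRas-shp53, as for 16.3% of all genes, and Stat3 above in NPCTKO, as for 14.9% of all genes.

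**Figure D1:**
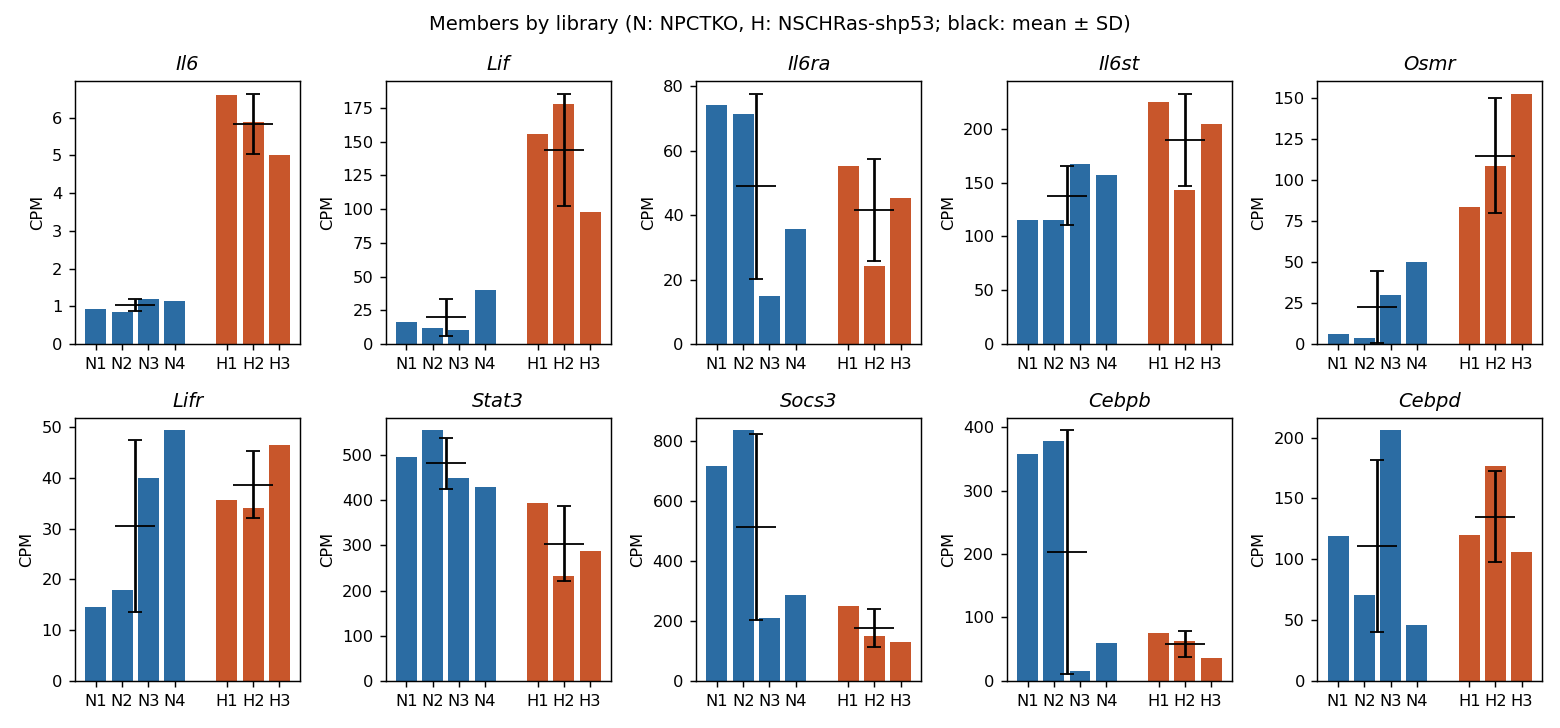
CPM of the 10 members in each library (N, NPCTKO 1 to 4 in blue; H, NSCHRas-shp53 1 to 3 in orange; black lines, mean ± SD; each panel has its own linear axis from 0). The orange bars of Il6, Lif and Osmr all stand above the blue ones, while Socs3 and Cebpb are tall in NPCTKO 1 and 2 alone, at 717 and 837 CPM and at 358 and 378 CPM.

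The sequence around the transcription start is shown for the 3 members whose start windows held a searched motif, namely the cytokine genes that were higher in NSCHRas-shp53 and the STAT3 target Socs3. The windows run from 250 bases before to 50 after the RefSeq start on GRCm38.p6, the assembly that mm10 names, and 9 of the 10 members had an entry, Cebpd being the exception. The letters searched, on both strands, were TTGCNNAA for C/EBP (TTNNGCAA on the other strand), TTCNNNGAA for STAT (the same on both), TGACTCA for AP-1, the Fos and Jun dimer (TGAGTCA on the other strand), and GGANTTTCC for NF-kB (GGAAANTCC on the other strand). These letters were settled after the windows had been seen. Matches are in capitals, and none overlapped another. Of 32851 start windows of mouse genes, 10.8% held the C/EBP letters, 8.3% the STAT letters, 5.2% the AP-1 letters and 1.25% the NF-kB letters.
Il6, chr5:30012864-30013163, plus strand: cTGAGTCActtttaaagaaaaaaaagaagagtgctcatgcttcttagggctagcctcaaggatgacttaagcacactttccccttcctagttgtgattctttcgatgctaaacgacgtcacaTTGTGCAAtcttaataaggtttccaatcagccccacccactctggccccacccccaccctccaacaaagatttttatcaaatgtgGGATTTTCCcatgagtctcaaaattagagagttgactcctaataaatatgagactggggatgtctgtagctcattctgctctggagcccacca
Lif, chr11:4257318-4257617, plus strand: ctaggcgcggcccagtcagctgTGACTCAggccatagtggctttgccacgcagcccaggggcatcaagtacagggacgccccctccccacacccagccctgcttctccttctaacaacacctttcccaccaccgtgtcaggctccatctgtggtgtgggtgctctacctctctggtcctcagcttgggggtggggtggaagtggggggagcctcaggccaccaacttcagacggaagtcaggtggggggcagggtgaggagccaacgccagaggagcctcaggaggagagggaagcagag
Socs3, chr11:117969317-117969616, minus strand: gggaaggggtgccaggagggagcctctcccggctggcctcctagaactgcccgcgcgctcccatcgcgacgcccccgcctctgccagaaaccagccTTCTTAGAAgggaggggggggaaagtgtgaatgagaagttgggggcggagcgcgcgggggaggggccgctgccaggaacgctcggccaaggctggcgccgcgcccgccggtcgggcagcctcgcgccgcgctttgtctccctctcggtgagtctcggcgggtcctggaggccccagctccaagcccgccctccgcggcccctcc
The Il6 window held the AP-1 letters TGAGTCA from base -249, C/EBP letters TTGTGCAA from -128 and NF-kB letters GGATTTTCC from -43, counted from the start. The Lif window held the AP-1 letters TGACTCA from -228, so that both cytokine genes carried them. The Socs3 window held the STAT letters TTCTTAGAA from -154. A match is a description of the letters and not a sign of binding.

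Il6, on chromosome 5 of mm10 from 30013114 to 30019981, encodes the founding cytokine of the family. It was read at 0.942, 0.858, 1.2 and 1.15 CPM in NPCTKO 1 to 4 and at 6.61, 5.89 and 5.02 CPM in NSCHRas-shp53 1 to 3. The models did not overlap, and the NPCTKO values lay between 0.858 and 1.2. The raw counts behind them were 14, 11, 23 and 19 against 121, 116 and 116, well over the floor. The log2 fold change was 2.48 ± 0.41 (SE), a 5.59-fold difference (edgeR, adjusted p = 0.0092), and it was 2.34 without NPCTKO 1 and 2 (adjusted p = 0.021). With a correction for trends in transcript GC content and length it was 1.68 (adjusted p = 0.028), Il6 having the lowest transcript GC content of the members, 39.3% against a median of 49.6% over the genes tested.

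Lif, on chromosome 11 from 4257557 to 4272514, encodes leukemia inhibitory factor, which signals through LIFR and gp130 and is known for holding stem cells in a self-renewing state. Its values were 16.2, 12.2, 10.8 and 40.1 CPM in NPCTKO and 156, 178 and 97.8 CPM in NSCHRas-shp53. NPCTKO 4 stood highest among the sorted libraries, still below every NSCHRas-shp53 library. The log2 fold change was 2.86 ± 0.51, or 7.27-fold (edgeR, adjusted p = 0.012), and without NSCHRas-shp53 2, the library with the most Lif, it was 2.69 with the call lost (adjusted p = 0.053). Lif was the more abundant of the pair of cytokines in every library, with FPKM values (fragments scaled to transcript length and library size) 2.14 to 11.6 times those of Il6 in NPCTKO and 4.54 to 8.36 times in NSCHRas-shp53.

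Among the other cytokines of the family, Il11 and Clcf1 rose in NSCHRas-shp53. Il11, a cytokine of fibroblasts and tumor stroma that also uses gp130, was read at 2.02, 3.12, 10.6 and 6.65 CPM in NPCTKO and 24.8, 70.7 and 60.6 CPM in NSCHRas-shp53 (log2 fold change 3.21, edgeR adjusted p = 0.016, lost without NSCHRas-shp53 2 or 3, at 0.068 and 0.069). Clcf1 encodes a cytokine that acts on the CNTF receptor. Clcf1 was 10.3-fold higher, from 6.79 to 103 CPM in NPCTKO and from 281 to 620 CPM in NSCHRas-shp53 (edgeR adjusted p = 0.042). Its call was lost on leaving out any of the libraries but NPCTKO 4, with adjusted p from 0.056 to 0.14. In FPKM it lay at only 0.115 to 3.04 in NPCTKO and 6.7 to 8.17 in NSCHRas-shp53. Its mean FPKM in NSCHRas-shp53 was 7.65, against 33.4 for Lif. Why its CPM and FPKM differ so widely was not tested. Of the remaining tested genes, the log2 fold change of Il27 was -2.01 (edgeR adjusted p = 0.14), and Ctf1 and Ebi3 did not pass either. DESeq2 called Il27 lower in NSCHRas-shp53, and without NPCTKO 1 and 2 its difference was -0.7 (edgeR adjusted p = 0.54). Osm, which encodes the macrophage cytokine that binds OSMR and whose name was picked after its values were seen, was read at 133, 335, 6.41 and 30.1 CPM in NPCTKO and 47.8, 5.99 and 6.06 CPM in NSCHRas-shp53 (log2 fold change -2.66, adjusted p = 0.22, and 0.17, adjusted p = 0.93, without NPCTKO 1 and 2). Osm was highest in NPCTKO 1 and 2, the libraries with the most TAM and immediate early RNA, and its part in any result here was not tested.

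**Figure D2:**
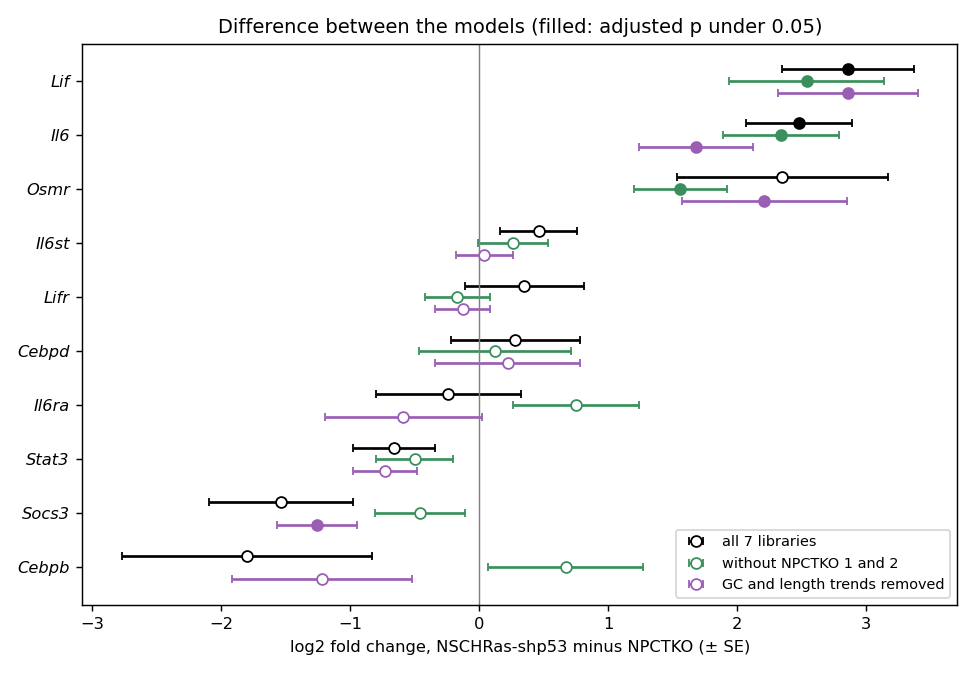
Log2 fold change (NSCHRas-shp53 minus NPCTKO) of each member with its SE, from all 7 libraries (black), without NPCTKO 1 and 2 (green) and with GC and length trends removed (purple); filled points have an adjusted p under 0.05. Lif and Il6 are filled in all 3 fits, Osmr in the green and purple fits, and Cebpb moves from -1.80 to 0.67 when NPCTKO 1 and 2 are left out.

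The receptor genes did not pass the test, and they differed among themselves in how widely they spread. Osmr, on chromosome 15 from 6813577 to 6874969, encodes the chain that pairs with gp130 for oncostatin M, a macrophage cytokine known to act on glioma cells. Values of 6.26, 3.51, 29.9 and 50.2 CPM in NPCTKO stood against 83.7, 109 and 153 CPM in NSCHRas-shp53. The models did not overlap, but NPCTKO itself spread from 3.51 to 50.2, with NPCTKO 1 and 2 lowest. The log2 fold change of 2.35 ± 0.82 gave an edgeR adjusted p of 0.094. Without NPCTKO 1 and 2 it was smaller, 1.56 ± 0.36, and passed (adjusted p = 0.033), in a fit that called 16.3% of all genes and 3 members, Il6, Lif and Osmr. Limma on log2(FPKM + 1) called the same 3 members (Osmr difference 2.63, adjusted p = 0.032), where it called 12.1% of all genes. Osmr was called in 7 of 18 alternatives, and none of those that left out a single library was among them.

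Lifr, on chromosome 15 from 7129559 to 7197489, encodes the LIF receptor and lies near Osmr on the same chromosome. CPM values for it were 14.6, 17.9, 39.9 and 49.4 in NPCTKO and 35.7, 34.1 and 46.4 in NSCHRas-shp53. The models overlapped, and the log2 fold change was 0.35 ± 0.46 (edgeR, adjusted p = 0.65). Per length, the ratio of Osmr to Lifr FPKM was 0.52, 0.387, 0.897 and 1.66 in NPCTKO and 3.19, 6.6 and 6.31 in NSCHRas-shp53. Osmr RNA thus lay under Lifr RNA in 3 of 4 sorted libraries and over it in all 3 tissue libraries.

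Il6st, on chromosome 13 from 112464070 to 112510086, encodes gp130, the chain that all these ligands share. Its values of 115, 115, 167 and 157 CPM in NPCTKO and 225, 143 and 204 CPM in NSCHRas-shp53 overlapped, and it spread least of the receptor genes over the 7 libraries (log2 fold change 0.46 ± 0.30, edgeR adjusted p = 0.33). Il6ra, on chromosome 3 from 89864059 to 89913196, encodes the IL-6-specific chain, which leukocytes and hepatocytes carry. It was read at 74.1, 71.3, 15 and 35.7 CPM in NPCTKO and 55.3, 24.1 and 45.4 CPM in NSCHRas-shp53 (log2 fold change -0.24 ± 0.56, adjusted p = 0.82), highest in the pair of libraries with the most TAM and immediate early RNA. Without that pair the difference turned to 0.75 (adjusted p = 0.31). The ratio of Il6st to Il6ra FPKM was 1.21 and 1.23 in NPCTKO 1 and 2 and from 3.21 to 7.99 in the other 5 libraries. Of the 4 other receptor genes of the family, Il11ra1, Cntfr, Il27ra and Il31ra, 0 were called (edgeR; 1 at an unadjusted p under 0.05, 0 by DESeq2; median log2 fold change 0.31, and 0.70 without NPCTKO 1 and 2), and the most changed was Il11ra1 at 1.30 (adjusted p = 0.14), a gene with a near-identical copy whose reads the counting could split. Il11ra1 was called without NPCTKO 1 and 2 (2.1, adjusted p = 0.040) and with GC and length trends removed (1.52, adjusted p = 0.021). Il31ra lay at -0.35 by counts, but its FPKM was 0 to 0.0209 in NPCTKO and 0.0499 to 0.1 in NSCHRas-shp53. The 2 scales thus gave opposite directions for Il31ra.

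Neither Stat3 nor Socs3 passed the test, and both had their highest values in NPCTKO 1 and 2. Stat3, on chromosome 11 from 100885098 to 100939540, encodes the transcription factor that the receptors activate and was read at 496, 555, 449 and 429 CPM in NPCTKO and at 393, 232 and 287 CPM in NSCHRas-shp53. The values did not overlap on the CPM scale, but on the FPKM scale they did, with 72.3 in NPCTKO 4 and 73.7 in NSCHRas-shp53 1. The log2 fold change of -0.66 ± 0.32 did not pass (edgeR, adjusted p = 0.20), and in 18 alternatives it stayed between -0.86 and -0.46 with 0 calls. RNA counts do not read the phosphorylation that activates the protein.

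Socs3, on chromosome 11 from 117966079 to 117970047, encodes the feedback inhibitor that binds gp130 and the JAK kinases, and was read at 717, 837, 210 and 287 CPM in NPCTKO and 249, 150 and 129 CPM in NSCHRas-shp53. NPCTKO 1 and 2 stood far above all other libraries, while NPCTKO 3 lay within the NSCHRas-shp53 range and NPCTKO 4 above it. The log2 fold change was -1.54 ± 0.56 (edgeR, adjusted p = 0.11), and it shrank to -0.46 (adjusted p = 0.37) without NPCTKO 1 and 2. Without NPCTKO 3 instead, it passed (-1.80, adjusted p = 0.043). DESeq2, which called 20.1% of the genes to which it gave an adjusted p, and edgeR with GC and length trends removed, which called 23.6%, each called 4 members, Il6, Lif, Osmr and Socs3. The ratio of Socs3 to Stat3 FPKM was 2.24 and 2.31 in NPCTKO 1 and 2, 1.04 and 1.41 in NPCTKO 3 and 4, and 1.21, 1.29 and 0.826 in NSCHRas-shp53. Summed immediate early genes and summed TAM markers were both highest in the same pair of libraries, and the part of either in the Socs3 level was not tested.

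Of the JAK kinases and other STAT genes, those named here did not pass. Jak1, the main kinase of gp130, lay at 0.68 on the log2 scale (adjusted p = 0.13), Stat5b -0.76 (adjusted p = 0.14) and Stat2 -0.88 (adjusted p = 0.20). Among 15 other inhibitors of the pathway, Socs5 was the gene called by edgeR (3 higher and 1 lower at an unadjusted p under 0.05, 2 higher and 0 lower by DESeq2; median log2 fold change of the list -0.03, and 0.06 without NPCTKO 1 and 2). Socs5 was read at 34.6, 31.1, 51.3 and 45.9 CPM against 117, 138 and 140 CPM (log2 fold change 1.69, edgeR adjusted p = 0.0092), and it was called in 18 of 18 alternatives. Socs5 and Socs3 thus lay in opposite directions, of which Socs5 alone passed with edgeR on all libraries. Socs6 (0.82, adjusted p = 0.077), Socs2 (0.84, adjusted p = 0.12) and Pias4 (-0.87, adjusted p = 0.14) did not pass with edgeR, while DESeq2 called Socs6 higher.

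Textbook targets of STAT3 were called in both directions. Of 23 tested, 4 rose, 3 fell and 16 were not called by edgeR (6 and 4 by DESeq2), with a median log2 fold change of 0.08 (0.42 without NPCTKO 1 and 2), where 7.77% of all genes rose and 5.28% fell. Lcn2, which encodes the iron carrier lipocalin 2, was read at 10.4, 0.624, 2.71 and 2.84 CPM in NPCTKO and at 119, 445 and 461 CPM in NSCHRas-shp53 (log2 fold change 6.36, edgeR adjusted p = 0.0073). A2m, which encodes a protease inhibitor, was higher by 5.83 on the log2 scale (adjusted p = 0.0055), and Serpina3n, a serpin of reactive astrocytes, 2.75 (adjusted p = 0.0079). These 3 were called in every alternative that tested them, 18 of 18 for Lcn2 and A2m and 15 of 15 for Serpina3n. Birc5, which encodes the mitotic protein survivin, fell from between 42.8 and 53.1 CPM in NPCTKO to between 7.38 and 11.4 CPM in NSCHRas-shp53 (log2 fold change -2.38, adjusted p = 0.0044), in 18 of 18 alternatives. The other called targets, named because they were called, were the growth regulator Myc (-1.80, adjusted p = 0.011, lost without NSCHRas-shp53 2 or 3 at 0.060 and 0.069), the transcriptional repressor Bcl6 (1.33, adjusted p = 0.036, lost without NPCTKO 4 or any of the NSCHRas-shp53 libraries, at 0.065 to 0.14) and the interferon-induced factor Irf1 (-2.44, adjusted p = 0.039, lost without NPCTKO 1 or 2 or any of the NSCHRas-shp53 libraries, at 0.069 to 0.17). Irf1 was read at 712, 767, 188 and 250 CPM in NPCTKO, and without NPCTKO 1 and 2 its difference was -1.27 with the call lost (adjusted p = 0.065). Without NPCTKO 1 and 2, 9 targets rose and 2 fell, in a fit that called 1488 genes higher and 1231 lower of 16631. The acute-phase genes Hp (0.25, adjusted p = 0.89), Saa3 (1.19, adjusted p = 0.57) and Lrg1 (3.97, adjusted p = 0.092) did not pass with all libraries. They passed without that pair (2.73, 4.88 and 7.69, edgeR adjusted p = 0.040, 0.024 and 0.0038). NPCTKO 3 and 4 then held 5 and 15 counts of Hp, 3 and 39 of Saa3 and 1 and 4 of Lrg1. Some of these lay at or under the floor of 3 counts, so the sizes of these differences are uncertain. These 3 genes are named after their values were seen. Gfap and Timp1 hold 0 counts in every library of the count table and were read from FPKM, where limma gave differences of 4.27 (adjusted p = 0.0045) and 6.55 (adjusted p = 0.0020). Gfap and Serpina3n are also made by astrocytes. Astrocyte markers, which astrocyte-like tumor cells can share, were higher in the whole tissue, and the share of astrocyte RNA in these differences was not tested.

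**Figure D3:**
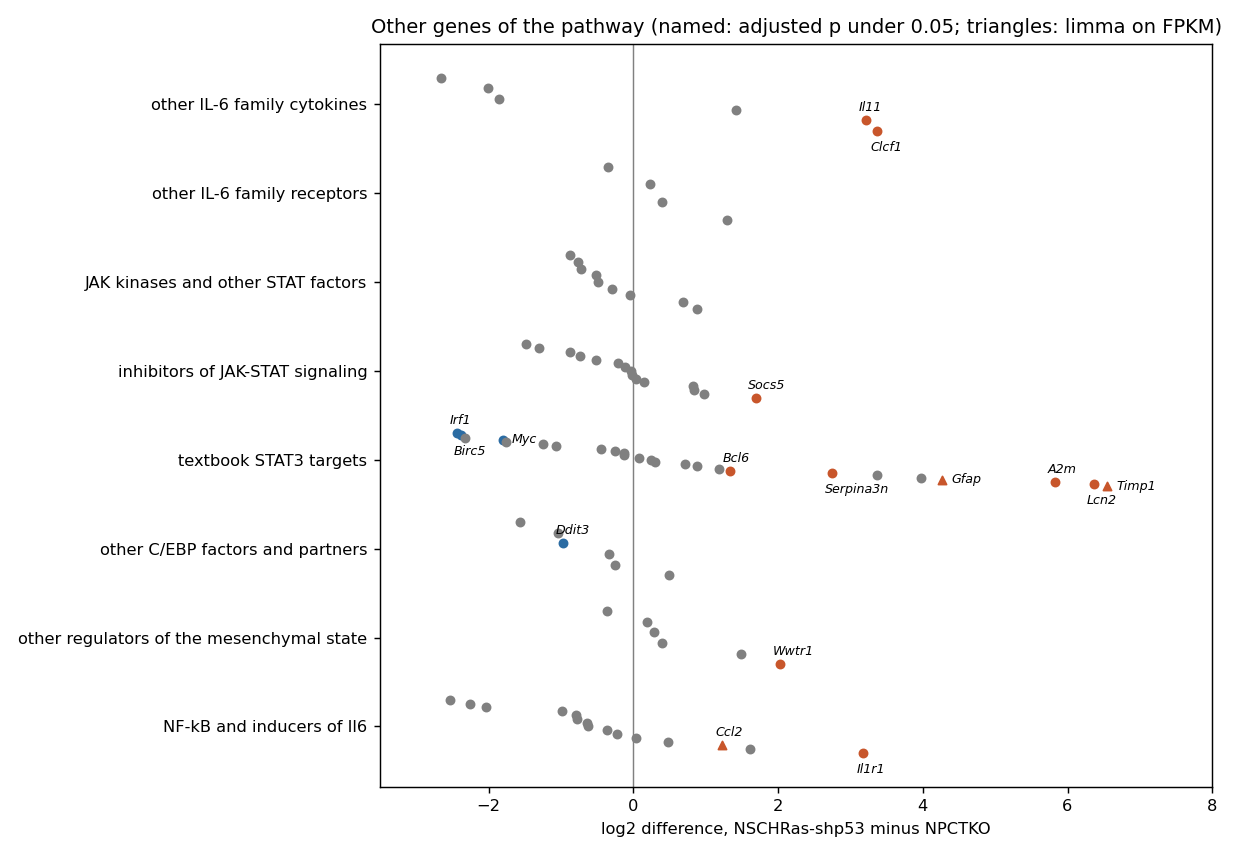
Log2 difference (NSCHRas-shp53 minus NPCTKO) of the other genes of the pathway, by list; orange and blue points have an adjusted p under 0.05, grey ones do not, and triangles are genes at 0 counts read from FPKM with limma. The STAT3 targets run from -2.44 (Irf1) to 6.55 (Timp1), while the receptor genes lie between -0.35 and 1.30, all grey. Some genes of the lists are not shown.

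Neither C/EBP gene passed the test. Cebpb, on chromosome 2 from 167688915 to 167690418, encodes C/EBPβ, a factor of macrophage and acute-phase genes. It was read at 358, 378, 14.9 and 60.3 CPM in NPCTKO and at 75.9, 62.5 and 35.9 CPM in NSCHRas-shp53. Within NPCTKO the highest and the lowest library enclosed all NSCHRas-shp53 values. The log2 fold change of -1.80 ± 0.97 did not pass (edgeR, adjusted p = 0.25) and turned to 0.67 ± 0.60 (adjusted p = 0.46) without NPCTKO 1 and 2. The order of the NPCTKO libraries was the same for Cebpb, for the summed TAM markers and for the summed immediate early and dissociation genes. The part of either list in the Cebpb level was not tested. Of the span of Cebpb, 60.4% is overlapped by Tmem189, and how reads in that stretch were counted is not stated. In FPKM the difference by limma was -0.29 (adjusted p = 0.86). Its transcript has the highest GC content of the members, 67.2%.

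Cebpd, on chromosome 16 from 15887286 to 15891031, encodes C/EBPδ, which is induced by STAT3 in the acute phase. It was read at 119, 71, 206 and 45.6 CPM in NPCTKO and at 120, 177 and 106 CPM in NSCHRas-shp53, so that NPCTKO held both the highest and the lowest value (log2 fold change 0.28 ± 0.50, edgeR adjusted p = 0.74). Cebpd is overlapped over 48.2% of its span by Spidr. The ratio of Cebpb to Cebpd FPKM was 9.26, 17.6, 0.341 and 5.73 in NPCTKO and 3.11, 2.02 and 1.82 in NSCHRas-shp53, and NPCTKO 3 was the library in which Cebpd exceeded Cebpb.

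Of 6 tested genes of other C/EBP factors and partners, 0 rose and 1 fell (edgeR; 0 and 2 at an unadjusted p under 0.05, 0 and 2 by DESeq2; median log2 fold change -0.66, which turned to 0.11 without NPCTKO 1 and 2). Ddit3, the stress-induced partner CHOP, fell by 0.97 on the log2 scale (edgeR adjusted p = 0.044), a call lost without any library except NPCTKO 3, at 0.066 to 0.19, and at 0.054 without NPCTKO 1 and 2. Atf4 (-1.04, adjusted p = 0.10), Cebpa (-1.57, adjusted p = 0.39, and 1.69, adjusted p = 0.12, without NPCTKO 1 and 2) and Cebpg (0.49, adjusted p = 0.39) did not pass. Of 6 other regulators of the mesenchymal state (median log2 fold change 0.34), Wwtr1, which encodes the Hippo effector TAZ, rose from 28.8, 23, 45.8 and 71.5 CPM to 206, 163 and 144 CPM (log2 fold change 2.02, adjusted p = 0.019, lost without any of the NSCHRas-shp53 libraries, at 0.065 to 0.068), while Fosl1 (1.49, adjusted p = 0.17), Zbtb18 (0.40, adjusted p = 0.32) and Bhlhe40 (0.29, adjusted p = 0.60) did not pass. Of 14 tested genes of NF-kB and inducers of Il6, 1 rose and 0 fell (edgeR; 2 and 1 at an unadjusted p under 0.05, 2 and 0 by DESeq2), with a median of -0.64, which turned to 0.14 without NPCTKO 1 and 2. The gene that rose was Il1r1, the IL-1 receptor, at 3.23, 3.82, 7.61 and 15.2 CPM against 64.5, 73.4 and 66.1 CPM (log2 fold change 3.18, adjusted p = 0.010), in 18 of 18 alternatives. Tnfaip3 (-2.04, adjusted p = 0.16), Rela (-0.98, adjusted p = 0.17) and Ptgs2 (1.61, adjusted p = 0.072) did not pass. Ccl2, at 0 counts, was higher by 1.23 in log2(FPKM + 1) with limma (adjusted p = 0.030).

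Levels were compared between members per length, in FPKM. In NPCTKO the order by mean was Cebpb (261 ± 214, SD, n = 4), Socs3 (159 ± 78.6), Stat3 (87.3 ± 14.7), Cebpd (50.3 ± 40.1), Il6st (19.3 ± 2.96), Il6ra (9.18 ± 5.52), Lif (4.52 ± 3.18), Osmr (3.43 ± 3.36), Lifr (3.32 ± 1.36) and Il6 (1.04 ± 0.313). Neighbours in this order had separate ranges only between Il6st and Il6ra and between Lifr and Il6, and the other 7 neighbouring pairs overlapped. In NSCHRas-shp53 the order was Cebpb (146 ± 44.7, SD, n = 3), Socs3 (65.8 ± 20.8), Cebpd (64.4 ± 19.5), Stat3 (59.6 ± 13.7), Lif (33.4 ± 9.07), Il6st (26.8 ± 7.51), Osmr (22.3 ± 8.87), Il6ra (6.64 ± 3.24), Il6 (4.86 ± 0.387) and Lifr (4.18 ± 0.766). Here the ranges parted between Cebpb and Socs3, between Stat3 and Lif and between Osmr and Il6ra. Lif thus ranked above the shared receptor Il6st in NSCHRas-shp53, though not beyond its spread, and below it in NPCTKO. Without NPCTKO 1 and 2, Socs3 (92.2) came before Cebpb (78.4) in the sorted libraries.

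**Figure D4:**
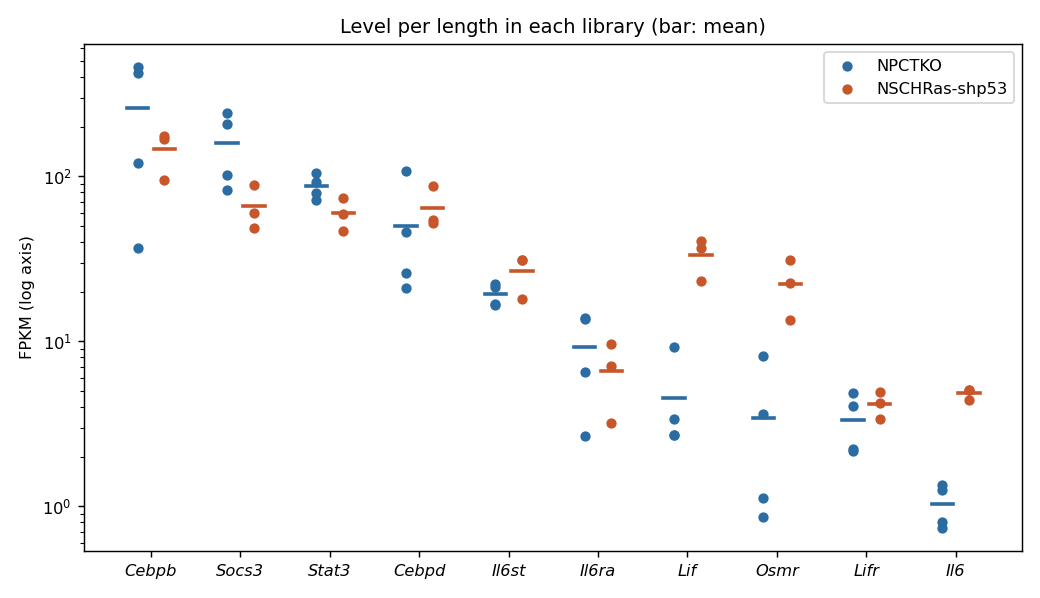
FPKM of the members in each library on a log axis, NPCTKO in blue and NSCHRas-shp53 in orange, with a bar at the mean; genes are in the order of the NPCTKO mean. Cebpb spans from 36.9 to 460 FPKM within NPCTKO, while the NSCHRas-shp53 values of Il6 sit between 4.42 and 5.1.

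NPCTKO 3, the sorted library with the fewest TAM markers, differed from the other NPCTKO libraries in most members, as it did in most genes. On log2(CPM + 1), without a test since it is a single library, it lay outside the range of the other 3 for 7 of 10 members. It lay above for Il6 (by 0.15), Il6st (0.38) and Cebpd (1.49), as for 29.5% of all genes, and below for Lif (-0.84), Il6ra (-1.87), Socs3 (-1.40) and Cebpb (-3.67), as for 33.1% of all genes. Osmr, Lifr and Stat3 lay inside. On log2(FPKM + 1), 5 of 10 members lay outside, with Il6 and Il6st inside as well. TAM markers were lowest in this library for 15 of 15 tested genes, and so were 15 of 15 immediate early and dissociation genes. Cebpd went the other way, and it did so with its neighbours on chromosome 16. Of 13 tested genes that start within 1 Mb of it, 12 were above the other NPCTKO libraries in NPCTKO 3 and 0 below, with a median difference of 1.74, against 44.3% of 479 genes of chromosome 16 above and a median of 0.30. Spidr, the gene that overlaps Cebpd, was read at 118 CPM in NPCTKO 3 and at 15.8, 16.3 and 18.6 CPM in NPCTKO 1, 2 and 4. Mcm4, a subunit of the replicative helicase, was read at 289 CPM there against 42.5, 46.4 and 67.1 CPM.

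**Figure D5:**
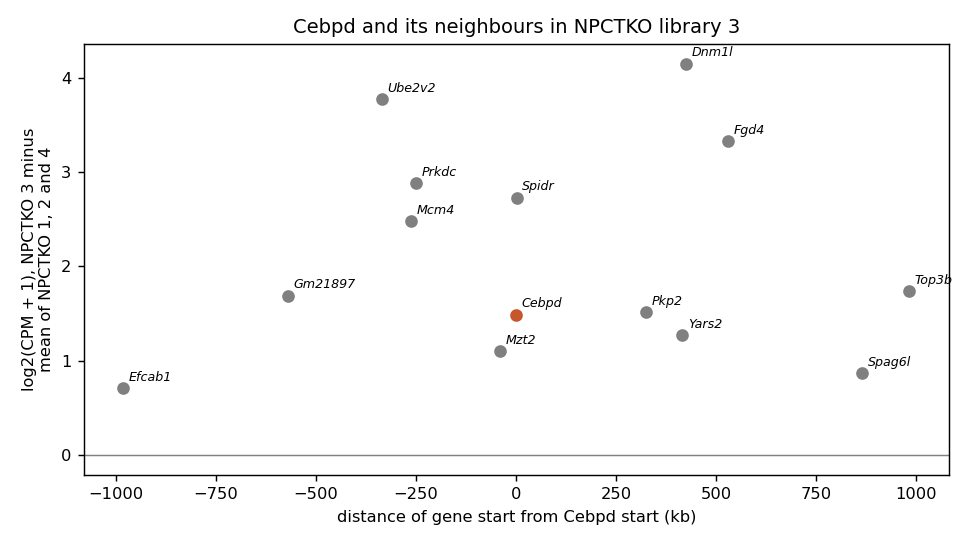
Difference in log2(CPM + 1) between NPCTKO 3 and the mean of NPCTKO 1, 2 and 4 for Cebpd (orange) and the 13 tested genes that start within 1 Mb (grey), against the distance of each start from that of Cebpd in kb. All 14 points lie above 0, from 0.71 (Efcab1) to 4.15 (Dnm1l), with Cebpd at 1.49.

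Genes with the most similar profile to a member were taken from 10849 genes with a mean of at least 10 CPM, by Pearson's r of log2(CPM + 1) over the 7 libraries. These libraries differ in model, preparation and TAM markers together, so r is given as a description. Stat3 ran closest with Zc3h7b (0.99) and Zdhhc3 (0.988). Socs3 ran with Blvra (0.997) and the ribosomal protein genes Rpl19 and Rpl10 (0.994 each). Osmr ran with Zscan26 (0.992), the chromatin factor gene Hmga2 (0.991) and Lrrk2 (0.991), of which Hmga2 was read at 10.7, 6.47, 106 and 136 CPM in NPCTKO and 241, 633 and 579 CPM in NSCHRas-shp53. Cebpb ran with Pla2g16 (0.995), Echs1 (0.994) and Tmem160 (0.994), and Cebpd with Rasgef1c (0.959), Ube2d2a (0.922) and Ift43 (0.919), the weakest matches of the 5. Among the members themselves the highest r was 0.941 between Il6 and Lif, and the lowest -0.953 between Osmr and Socs3.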

How the data were processed

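Bulk poly(A) RNA-seq of 4 NPCTKO and 3 NSCHRas-shp53 libraries was used, with groups taken from the sample labels. The count table, as deposited, holds raw read counts per gene, which the authors made from reads trimmed with cutadapt (1.16 per the submitters' processing notes, while the paper's methods give a later version) and mapped to mm10 with TopHat2 2.1.1. No source used here names the tool that counted them. The kit named in the labels does not keep strand, so reads of overlapping genes cannot be assigned by strand. The deposited FPKM table is output of Cufflinks 2.2.1 run by the authors, and of its 28538 rows, 3767 carry no gene name and 925 carry several.

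Counts were compared with edgeR 4.0.16 in R 4.3.3 (TMM factors, filterByExpr and the quasi-likelihood F test), with p-values adjusted after Benjamini and Hochberg over 16091 genes and a threshold of 0.05, in the direction NSCHRas-shp53 minus NPCTKO. Genes at 0 counts were read from FPKM with limma 3.58.1 on log2(FPKM + 1), a scale that understates changes of low genes. DESeq2 1.42.0 and other filters, factors and pseudocounts were alternatives, as were a replicate block, leaving out libraries and, added after the data were seen, removal of trends with transcript GC content and length (known for 97.4% of genes). On simulated counts with 15822 genes, this comparison recovered 0 of 50 true 2-fold changes, 12 of 50 that were 4-fold, 48 of 50 at 16-fold and 49 of 50 at 64-fold, 0 with the wrong sign, and 3 unchanged genes. Only 50 genes were changed at each fold, far fewer than the 2101 called in the data, so these rates can understate recovery here. Named genes were the 10 members, the up to 4 genes of smallest p in each pathway list, and genes of lists of at most 4, and others are marked in the text. Some genes that this rule selects were not reported here. The members and lists were chosen with earlier results of these data known. Start windows came from RefSeq, and the motif letters were settled after the windows had been seen. Tables and figures were made in Python 3.11.15 with pandas 2.3.3, numpy 2.4.6 and matplotlib 3.10.9.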

Additional observations from a re-analysis of the deposited data

Results flagged for a closer look

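Of 42 members and named genes whose 4 NPCTKO values were examined for a library far from the others, 3 were singled out, and chance does so for about 1 in 20 groups. None was a member. Socs2, an inhibitor of cytokine signaling, reached 19.3 CPM in NPCTKO 3, against 11.5 to 12.6 CPM in the other NPCTKO libraries. Cebpg, a C/EBP partner, reached 85.8 CPM and Fosl1, a subunit of AP-1, 51.9 CPM, both in NPCTKO 4, against at most 41.8 and 13.1 CPM in the others.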

How the results depend on the processing

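Il6 was called in 16 of 17 alternatives and Lif in 17 of 18, while Il6ra, Il6st, Lifr, Stat3, Cebpb and Cebpd were called in 0 of 18 each. In place of 2101 genes and 2 members, DESeq2 called 4010 and 4, a filter at 10 CPM 1161 and 1 (Lif, since Il6 was not tested), and removal of GC and length trends 3693 and 4, with 1471 genes higher and 2222 lower in NSCHRas-shp53 against 1251 and 850 without it. Leaving out each library gave 539 to 2595 genes, 1 to 3 members (1, Il6, without NSCHRas-shp53 2, and 3 without NPCTKO 3) and 6 to 15 genes of the pathway lists, against 15, with 6 without NSCHRas-shp53 2 or 3. Il6ra turned to 0.09 without normalization factors, to 0.75 without NPCTKO 1 and 2, and ranged from -0.54 to 0.08 on leaving out each library. Lifr turned to -0.17 and Cebpb to 0.67 without NPCTKO 1 and 2, and Lifr to -0.13 with the GC and length trends removed. None of these passed, and the cause was not tested. Without normalization factors the median log2 fold change of all genes moved from -0.1 to 0.09, and with the trends removed to -0.29. Deviations from the model's mean gave r = 0.254, -0.2 and 0.215 for libraries of the same number. Libraries of different numbers gave -0.335 to 0.34. With so few libraries, this cannot settle whether the numbers pair them. A fit with a replicate block called 1041 genes and 2 members, Lif and Osmr, with Il6 at 2.54 and an adjusted p of 0.062. In simulated counts 4-fold changes were mostly missed, though far fewer genes were changed there than were called here, so recovery can be understated. Members that did not pass are not shown to be alike between the models.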
